A study of Mus musculus with 6 samples.

Results

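Most of the genes described here encode core proteins of the spliceosome, together with Ppih, the cyclophilin of its U4/U6 particle. They were chosen by symbol: every row of the deposited kidney table whose name begins with Snrp, Prpf, Sf3a or Sf3b, or with Lsm followed by a digit, plus Ppih. The rule gave 48 genes of the 24346 in the table. Among them are 6 other LSm genes, such as Lsm11 and Lsm14a, which are counted as spliceosome genes below by symbol alone. Ppih was added because its level was lower in IVCC than in Sham kidneys, so its own difference is described without a test, whereas the other 47 were taken by name alone. RNA came from kidneys of C57BL/6 mice after the surgery labelled IVCC (3 libraries) or after sham surgery (3 libraries), and no other genotype, agent, time or age is given in the labels. The series title names renal congestion and acute kidney injury. What the letters IVCC stand for is not given, nor is it stated that each library is a different mouse, and a p-value here therefore reflects library-to-library spread that could be technical. The question put to these genes was whether Ppih stood alone or moved with its partners Prpf3 and Prpf4.

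The spliceosome removes introns from pre-mRNA and is built from small nuclear RNAs wrapped in proteins. A ring of Sm proteins, encoded by most of the Snrp genes, sits on the U1, U2, U4 and U5 RNAs, and a related ring of LSm proteins sits on the U6 RNA. U4, U6 and U5 join as the tri-snRNP, in which the PRPF3 and PRPF4 proteins form a subcomplex with the cyclophilin that Ppih encodes, a peptidyl-prolyl isomerase. Splicing goes on in every nucleus, but whole-kidney levels do not show which cell types express each of these genes.

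The stretches upstream of the annotated starts are shown for Ppih and the 3 other genes of U4/U6 proteins, because the comparison turns on these 4 genes. Each is the 250 bases before a start on the gene's own strand, 5′ to 3′, from RefSeq on GRCm38.p6, and 39 of the 48 genes had an entry. Capitals mark matches, on either strand, to 5 motifs. The ETS core, read by ETS factors, was searched as CCGGAA. The GC box was searched as GGGCGG and the TATA box as TATAAA. The CCAAT box was searched by the letters of its name, and the E-box was searched as CACGTG. The stretches lie at chr4:119320524-119320773 (minus strand) for Ppih, chr3:95855886-95856135 (minus strand) for the first of 2 listed starts of Prpf3, chr4:62408533-62408782 (plus strand) for Prpf4 and chr7:3629735-3629984 (plus strand) for Prpf31.
Ppih: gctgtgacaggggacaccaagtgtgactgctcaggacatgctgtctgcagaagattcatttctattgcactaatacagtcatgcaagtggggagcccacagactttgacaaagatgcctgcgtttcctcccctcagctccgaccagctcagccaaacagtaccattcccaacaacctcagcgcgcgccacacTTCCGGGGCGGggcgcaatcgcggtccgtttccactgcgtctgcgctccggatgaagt
Prpf3: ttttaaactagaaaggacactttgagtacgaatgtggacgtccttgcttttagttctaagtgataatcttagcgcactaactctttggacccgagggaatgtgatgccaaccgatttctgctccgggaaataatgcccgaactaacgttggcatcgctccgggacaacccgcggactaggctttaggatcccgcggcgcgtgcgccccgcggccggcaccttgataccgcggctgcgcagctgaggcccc
Prpf4: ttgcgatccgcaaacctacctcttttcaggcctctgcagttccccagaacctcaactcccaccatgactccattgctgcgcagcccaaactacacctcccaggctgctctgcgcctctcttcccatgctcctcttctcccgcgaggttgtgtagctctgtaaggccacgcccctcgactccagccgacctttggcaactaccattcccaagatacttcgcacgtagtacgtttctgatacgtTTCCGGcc
Prpf31: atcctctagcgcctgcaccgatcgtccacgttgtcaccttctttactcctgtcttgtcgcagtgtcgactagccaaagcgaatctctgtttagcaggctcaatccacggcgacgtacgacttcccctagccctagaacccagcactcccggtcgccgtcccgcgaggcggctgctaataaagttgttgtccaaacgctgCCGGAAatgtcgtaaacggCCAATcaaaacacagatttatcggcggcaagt
The Ppih stretch held an ETS core 58 to 53 bases before the start and a GC box 53 to 48 bases before it, which share 1 base. Prpf4 and Prpf31 also held an ETS core, 8 to 3 and 51 to 46 bases before their starts, and Prpf31 a CCAAT box 32 to 28 bases before. The Prpf3 stretch held none of these letters. Over all 32851 windows of the same length, 12.0% held the ETS core, 32.7% the GC box, 33.8% the CCAAT box, 12.4% the TATA box and 6.02% the E-box. These matches describe the letters and not any binding.

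Levels are given in FPKM (fragments scaled by transcript length and by library size), as deposited. The 3 IVCC libraries summed to between 719896 and 927860 FPKM and the Sham libraries to between 775720 and 1118260, and Kap, an abundant proximal tubule transcript, took 11.0% to 16.6% of each sum. FPKM do not give depth. The spacing of the lowest values gave nominal library sizes from 8200000 up to 9120000 reads (IVCC) and from 6120000 up to 7160000 reads (Sham), but only 61.1% to 65.2% of these values came out as whole reads within a tolerance of 0.1, so true depth was not measured. All 9 kidney markers examined were expressed, among them Umod of the thick ascending limb, Aqp2 of the collecting duct and Slc34a1 of the proximal tubule. For some other cell types the summed marker levels did not overlap between the groups. That of 6 podocyte markers was 54.0 to 96.3 FPKM in IVCC and 44.1 to 46.5 in Sham. That of 7 macrophage markers was 80.5 to 100.1 and 71.0 to 79.0, and that of 6 fibroblast markers 37.1 to 42.8 and 31.9 to 35.3. The sums overlapped for lymphocyte markers (3.1 to 4.3 in IVCC and 2.8 to 3.8 in Sham) and erythroid markers (59.7 to 109.0 and 84.8 to 115.1). At an unadjusted limma p under 0.05, Nphs1, Podxl, Synpo, Ptpro and Wt1 of podocytes, Lyz2, Mpeg1 and C1qb of macrophages and Col1a1, Col1a2, Col3a1 and Pdgfra of fibroblasts were higher in IVCC, and Csf1r of macrophages and Psca of urothelium were lower, none of them called after adjustment. Dcn of fibroblasts went the other way, averaging 18.2 FPKM in IVCC and 20.0 in Sham (log2 fold change -0.14), with overlapping groups. The summed level of 6 urothelium markers was 0.817 to 1.96 FPKM in IVCC and 0.926 to 11.2 in Sham. Upk2 and Upk3a of urothelium were highest in Sham replicate 3, at 2.2 and 2.5 FPKM. The summed level of 13 proliferation markers was 82.1 to 86.6 FPKM in IVCC and 83.3 to 96.4 in Sham. Of 6 markers each for fat, adrenal and skeletal muscle, 4, 3 and 4 were listed at 0 in all 6 libraries, among them Adipoq and Plin1 of fat, Cyp11a1 and Cyp11b1 of the adrenal and Ckm and Myh4 of muscle. The summed level of the fat markers was 74.8 to 139.0 FPKM in IVCC, beside 85.9 to 140.3 in Sham, nearly all of it from Fabp4, and that of the adrenal markers was 0.690 to 1.198 FPKM in IVCC. A value of 0 in this table does not show absence, since the ribosomal protein gene Rpl26 was also listed at 0 in every library. The part of cell composition in the results below was not tested, and in whole kidney fewer cells of a type and less RNA per cell cannot be told apart.

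The spliceosome genes covered a wide range of levels. The Sm genes Snrpd2 and Snrpd3 were the highest, with means over the 6 libraries of 218.8 and 217.3 FPKM, and Lsm11, a protein of the U7 particle that matures histone mRNA, was the lowest at 0.809 FPKM. Lsm11 averaged 0.773 ± 0.0866 FPKM in IVCC and 0.846 ± 0.0909 in Sham (SD, n = 3 each), and was the only one of the 48 genes below the minimum mean of 1 FPKM required for testing. The genes of U4/U6 proteins in the set ran from Prpf4 at 5.27 FPKM to Ppih at 20.8 FPKM.

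Ppih (ENSMUSG00000060288.13; chromosome 4, 119300010 to 119320546, minus strand, GRCm38) was at 15.1, 16.6 and 16.5 FPKM in IVCC replicates 1 to 3 and at 25.6, 23.0 and 27.8 FPKM in Sham replicates 1 to 3. All 3 IVCC values lay below all 3 Sham values, with a gap between 16.6 and 23.0 FPKM. The means were 16.1 ± 0.832 and 25.5 ± 2.41 FPKM, so the IVCC level was 63.1% of the Sham level, and the difference in log2(FPKM + 1) was -0.63. This difference chose the gene and is not a test result. Of the 12090 genes tested it was the one ranked 88 from the lowest.

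Prpf3, which encodes a U4/U6 scaffold protein, was at 8.84, 8.19 and 9.70 FPKM in the IVCC libraries and at 9.15, 10.3 and 9.24 FPKM in the Sham libraries. The groups overlapped, and the log2 fold change was -0.09 (95% interval -0.35 to 0.17, limma adjusted p = 0.924 over all genes). Prpf4, the direct partner of Prpf3, was at 6.04, 5.38 and 5.34 FPKM in IVCC, beside 5.41, 4.68 and 4.77 FPKM in Sham. Its fitted value was on the other side of 0, at 0.15 (95% interval -0.12 to 0.42, limma adjusted p = 0.924), again with overlapping groups. Prpf31, which binds the U4 RNA and bridges to the U5 particle, was at 10.6, 8.43 and 10.9 FPKM in IVCC, beside 12.1, 10.3 and 12.8 FPKM in Sham, a log2 fold change of -0.22 (95% interval -0.54 to 0.10, limma adjusted p = 0.924).

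The large U5 proteins of the tri-snRNP lay close to 0. Prpf8, the protein at the catalytic centre, was at 31.0, 32.8 and 28.1 FPKM in IVCC, beside 28.7, 28.2 and 30.2 FPKM in Sham (log2 fold change 0.07, 95% interval -0.17 to 0.32). Prpf6, which links U5 to U4/U6, was at 28.6, 24.1 and 26.9 FPKM in IVCC, beside 26.3, 24.6 and 29.6 FPKM in Sham (log2 fold change -0.01, 95% interval -0.29 to 0.26). The groups overlapped for both. The direction of Prpf3 turned positive when FPKM were rescaled to a common sum (TPM), at 0.066, that of Prpf6 turned positive under TPM and quantile normalization, at 0.16 and 0.033, and without the libraries numbered 3 of both groups, at 0.046, and that of Prpf8 turned negative once transcript length and GC content were corrected for, at -0.068. Prpf6 also turned positive without IVCC replicate 2, at 0.050, or without Sham replicate 3, at 0.056. TPM moved the median of all genes tested to 0.15, so under it Prpf3 lay below that median and Prpf6 close to it.

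**Figure D1:**
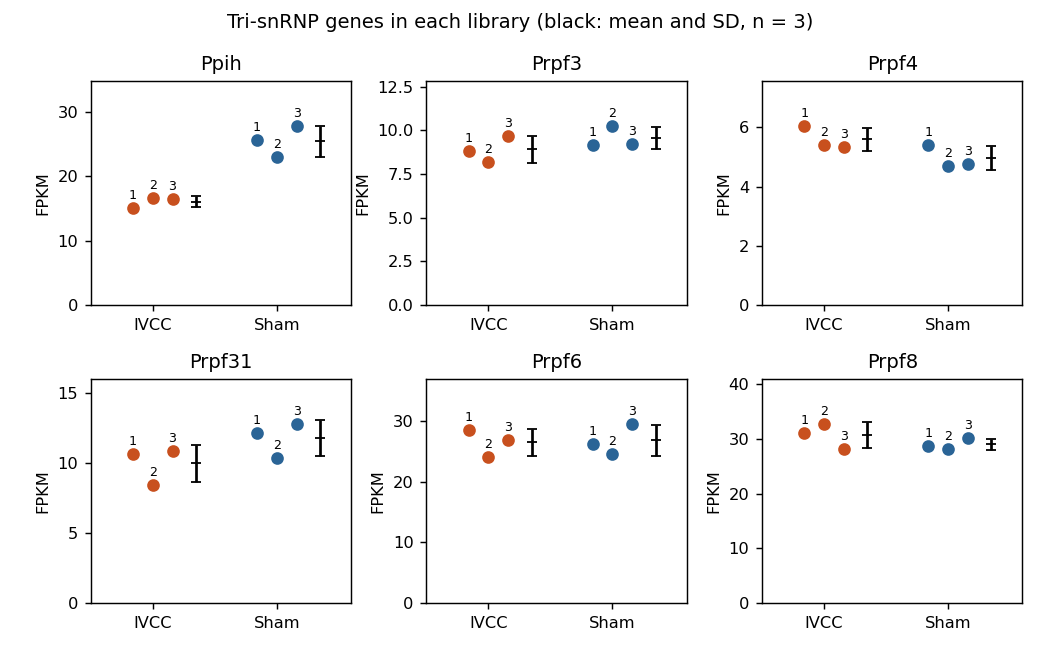
FPKM of Ppih and of 5 tri-snRNP partners in each library (y axis from 0, numbers give the replicate, black marks the mean and SD of n = 3). The 3 Ppih values in IVCC lie below the 3 in Sham, while the groups overlap for Prpf3, Prpf4, Prpf31, Prpf6 and Prpf8.

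A ratio of 2 genes within a library does not depend on how that library was scaled. Such a ratio does not remove the trend of fold change with transcript length described below, and these ratios were not corrected for length. Median transcript lengths were 757 bp for Ppih, 2832.5 bp for Prpf3 and 5223 bp for Prpf4. After the length and GC correction their log2 fold changes were -0.49, -0.14 and 0.041, in that order. The ratio of Ppih to Prpf4 was 2.50, 3.08 and 3.10 in the IVCC libraries and 4.73, 4.92 and 5.84 in the Sham libraries. The ratio of Ppih to Prpf3 was 1.71, 2.03 and 1.71 in IVCC and 2.79, 2.24 and 3.01 in Sham. Neither ratio overlapped between the groups, and the mean log2 ratios differed by -0.84 and -0.56. They stayed between -0.90 and -0.73 for Prpf4 and between -0.68 and -0.47 for Prpf3 when each library was left out in turn. Without the libraries numbered 3 of both groups they were -0.80 for Prpf4 and -0.43 for Prpf3. Against Prpf31 the highest IVCC ratio was 1.97 and the lowest Sham ratio 2.11. Over the 46 other genes tested, the ratio of Ppih to the gene was lower in every IVCC library than in every Sham library for 34 (73.9%). The same held for 74.8% of the 11986 other genes tested that had a value above 0 in every library, so the ratios describe the gene that was chosen for its difference and nothing particular to these partners.

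None of the 46 spliceosome genes tested besides Ppih was called at an adjusted p under 0.05 in limma, with a smallest adjusted p of 0.924. Over all genes 0 of 12090 were called (0.00%). At an unadjusted limma p under 0.05 the count was also 0 of 46, against 3.56% of all genes tested. Snrpc had the smallest unadjusted limma p, 0.0620. That count was 4 of 46 (8.70%) without IVCC replicate 3, where 8.52% of all genes passed, and 3 (6.52%) without Sham replicate 2, where 4.67% of all genes passed. Without the libraries numbered 3 of both groups it was 4, with 8.70% of all genes, so these shares lay near the background. The groups did not overlap for 1 of the 46, Snrpb2, which was lower in IVCC. Over all genes tested 8.31% did not overlap, 4.22% lower and 4.09% higher in IVCC. Snrpb2, the U2 snRNP B″ protein, was at 22.9, 26.4 and 26.0 FPKM in IVCC, beside 29.7, 26.9 and 32.8 FPKM in Sham, with a log2 fold change of -0.24 (95% interval -0.51 to 0.04).

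Small shifts in 1 direction were common. The fitted value was lower in IVCC for 35 of the 46 genes and higher for 11, with a median log2 fold change of -0.11, beside 51.6% lower and a median of -0.01 over all genes tested. For 29 of the 46 the fitted value lay within 0.2 of 0. Leaving out Sham replicate 3 gave a median of -0.038 and leaving out IVCC replicate 2 one of -0.066. Leaving out Sham replicate 2 gave -0.20 and leaving out IVCC replicate 3 gave -0.19. Rescaling to TPM moved the median of all genes to 0.15 and that of these genes to 0.061, with 18 of 46 lower. Ppih had the lowest fitted value of the 47 tested, except without Sham replicate 1, where Lsm5 was at -0.63 and Ppih at -0.62.

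**Figure D2:**
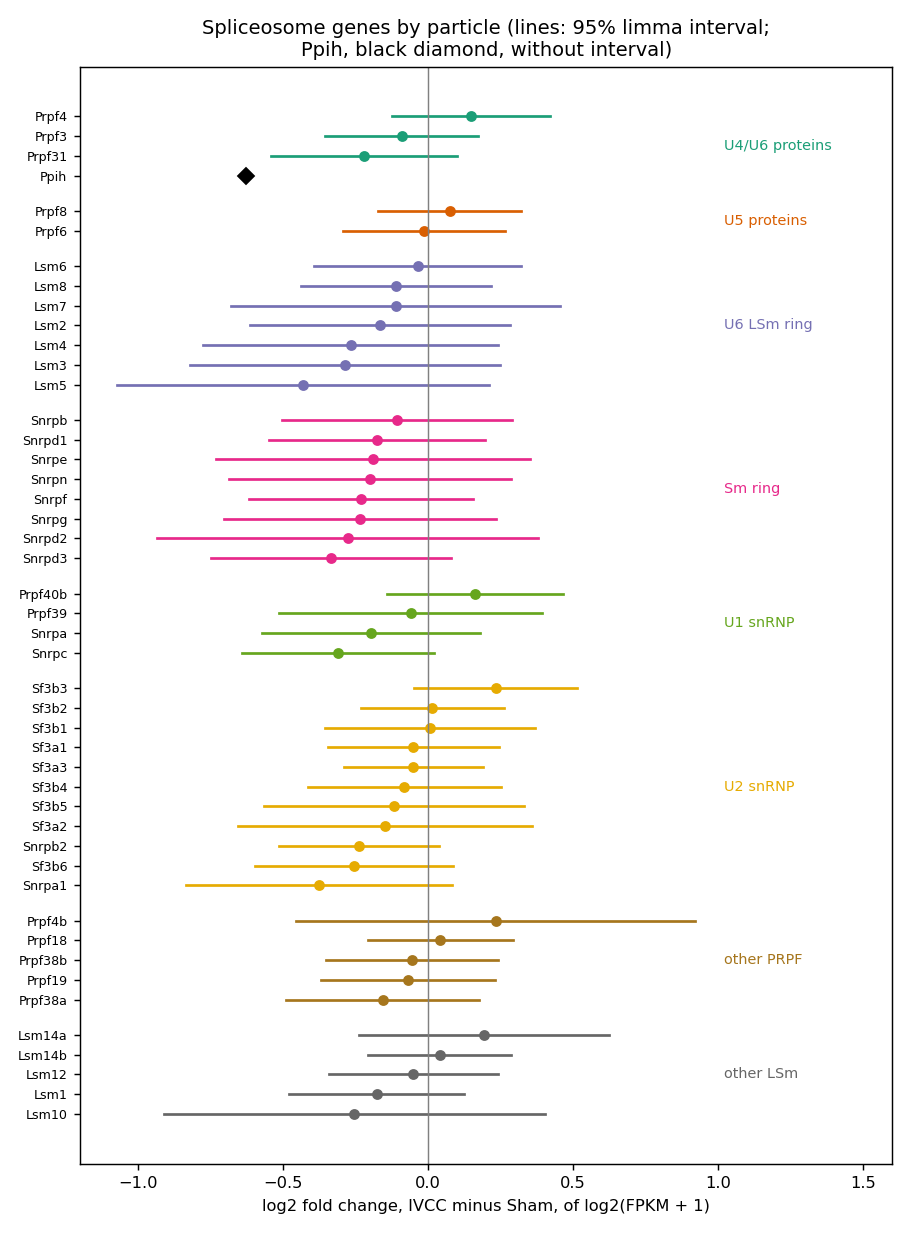
Log2 fold change (IVCC minus Sham, x axis) of 46 of the 47 spliceosome genes tested, grouped by particle, with 95% limma intervals as lines; Ppih is the black diamond and has no interval because its difference chose it. Every interval drawn includes 0, and Ppih lies at -0.63, below the point of each other gene drawn.

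Genes of the Sm ring lay on 1 side of 0. All 8 (Snrpb, Snrpn, Snrpd1, Snrpd2, Snrpd3, Snrpe, Snrpf and Snrpg) had lower fitted values in IVCC, with a median log2 fold change of -0.22 and a range from -0.34 to -0.11, and none was called. Snrpd3, one of the core ring proteins, was at 187.4, 161.6 and 227.8 FPKM in IVCC, beside 232.7, 210.1 and 284.4 FPKM in Sham (log2 fold change -0.34, limma adjusted p = 0.924). Without Sham replicate 3 the median of the ring was -0.048 with 6 of 8 lower, and after the length and GC correction it was -0.081 with 7 of 8 lower. Leaving out IVCC replicate 2 gave -0.15, and leaving out IVCC replicate 3 gave -0.35, the same as leaving out Sham replicate 2. Leaving out Sham replicate 3 put Snrpd3 at -0.22, as did leaving out IVCC replicate 2. Under TPM, where the median of all genes was 0.15, that of the ring was -0.045 with 7 of 8 lower.

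The LSm ring of U6 did the same: all 7 genes (Lsm2 to Lsm8) had lower fitted values, with a median of -0.17, and none was called. Lsm5 was at 25.5, 21.9 and 34.4 FPKM in IVCC, beside 27.6, 31.5 and 55.9 FPKM in Sham. Its fitted log2 value was -0.43 (standard error 0.28), and -0.13 without Sham replicate 3, its highest library. Lsm3, at 50.5, 47.5 and 59.9 FPKM in IVCC, beside 62.3, 46.9 and 90.0 FPKM in Sham, had a fitted log2 value of -0.29 that was -0.045 without Sham replicate 3. Without that library the median of the ring was -0.045 with 4 of 7 lower, and without IVCC replicate 2 it was -0.089 with 5 of 7 lower. Leaving out IVCC replicate 3 gave -0.33, and leaving out Sham replicate 2 gave -0.28. Under TPM, where the median of all genes was 0.15, 3 of 7 were lower. After the length and GC correction 4 of 7 were lower.

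Among the U1 genes, Snrpc, whose protein helps U1 to meet the 5′ splice site, was at 35.8, 31.3 and 43.2 FPKM in IVCC, beside 46.2, 41.7 and 48.7 FPKM in Sham (log2 fold change -0.31, standard error 0.14, limma adjusted p = 0.924). Only the third IVCC library overlapped the Sham range. Prpf40b, a homologue of a yeast U1 protein, was at 8.13, 7.83 and 8.81 FPKM in IVCC, beside 7.69, 8.12 and 6.15 FPKM in Sham (log2 fold change 0.16, standard error 0.13). Its value was 0.055 without Sham replicate 3. The 5 U1 genes together had 3 lower and 2 higher fitted values.

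The U2 genes, whose proteins recognise the branch site, had 8 lower and 3 higher fitted values of 11, with a median of -0.08. Snrpa1, the U2 A′ protein, was at 16.1, 13.2 and 20.4 FPKM in IVCC, beside 18.1, 20.2 and 27.0 FPKM in Sham (log2 fold change -0.38, standard error 0.20). Leaving out Sham replicate 3 gave -0.22, and leaving out IVCC replicate 2 gave -0.23. Sf3b1, the largest subunit of the SF3b complex that holds the branch site, averaged 34.6 ± 2.03 FPKM in the IVCC libraries, beside 34.9 ± 7.01 FPKM in Sham (SD, n = 3 each), a log2 fold change of 0.0057. Sf3b3, another SF3b subunit, was at 16.1, 17.1 and 14.2 FPKM in IVCC, beside 13.7, 14.3 and 11.9 FPKM in Sham (log2 fold change 0.23, standard error 0.12). Its lowest IVCC value was below the highest Sham value by a small margin.

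The other PRPF genes had 3 lower and 2 higher fitted values. Prpf4b, a kinase of splicing proteins, had a fitted value of 0.23 on the log2 scale (standard error 0.29). Its value was -0.053 without Sham replicate 3, where it was at 7.34 FPKM against 11.5 and 17.4 FPKM in the other Sham libraries. The other LSm genes tested had 3 lower and 2 higher fitted values, the highest being Lsm14a, a protein of cytoplasmic mRNA granules, with a fitted log2 value of 0.19 (standard error 0.18). Leaving out Sham replicate 3 gave 0.022, and leaving out IVCC replicate 2 gave 0.064.

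The direction of these genes moved with the length of their transcripts. All 11 of the 46 with a transcript under 1000 bp (median of GENCODE M21 basic transcripts) had lower fitted values in IVCC, as did all 12 from 1000 to 2000 bp, with medians of -0.23 and -0.19. Of the 23 above 2000 bp, 12 were lower and 11 higher, with a median of -0.01. Over all genes tested the same was seen: 79.8% of 1272 genes under 1000 bp, 74.6% of 3080 between and 37.5% of 7661 above 2000 bp were lower, with medians of -0.19, -0.10 and 0.04. After the correction for length and GC content the 3 classes of spliceosome genes had medians of -0.083, -0.036 and -0.066, beside -0.058, 0.014 and -0.010 for all genes. Without Sham replicate 3 the genes under 1000 bp had a median of -0.076, with 7 of 11 lower, and all genes of that length a median of -0.046.

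Ppih is itself short, with a median transcript length of 757 bp. Its log2 fold change was -0.49 after the correction and -0.57 without Sham replicate 3, against -0.63 as deposited. Among the 1272 tested genes under 1000 bp it ranked 41 from the lowest. After the correction Prpf3 was at -0.14, Prpf31 at -0.28 and Prpf4 at 0.041.

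**Figure D3:**
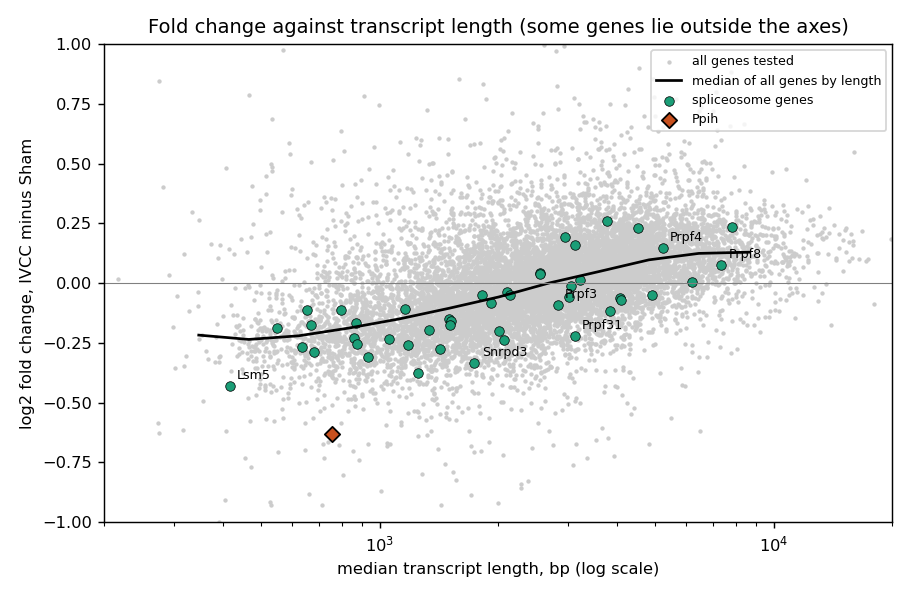
Log2 fold change (IVCC minus Sham) against median transcript length on a log scale, for all genes tested (grey, with their median by length as a black line), the 46 spliceosome genes (green) and Ppih (diamond). The short spliceosome genes lie below 0 near the line, and Ppih lies at -0.63, below the other spliceosome genes of its length.

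In single libraries the values of the Sm and LSm rings did not separate the groups. Relative to each gene's mean, the Sm ring lay at a median of -0.20, -0.28 and 0.12 in IVCC replicates 1 to 3 and at 0.03, -0.20 and 0.44 in Sham replicates 1 to 3. The U6 LSm ring lay at -0.20, -0.28 and 0.19 in IVCC and at -0.04, -0.09 and 0.43 in Sham. All genes with transcripts under 1000 bp lay at -0.14, -0.31 and 0.16 in IVCC and at 0.02, -0.13 and 0.40 in Sham, so the lowest library was IVCC replicate 2 and the highest Sham replicate 3 for both rings and for short genes in general. In Sham replicate 1 the LSm ring was slightly below its mean and short genes slightly above theirs. The rings are not matched to these short genes in length. Their median transcript lengths ran from 550 bp (Snrpe) to 2004 bp (Snrpn) in the Sm ring and from 416 bp (Lsm5) to 2107 bp (Lsm6) in the LSm ring. Ppih lay at -0.40, -0.27 and -0.27 in IVCC and at 0.32, 0.18 and 0.44 in Sham, which restates the difference it was chosen for. Sham replicate 3 was the highest library for 27 of the 46 genes (36.2% of all genes tested) and IVCC replicate 2 the lowest for 21 (26.0%).

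**Figure D4:**
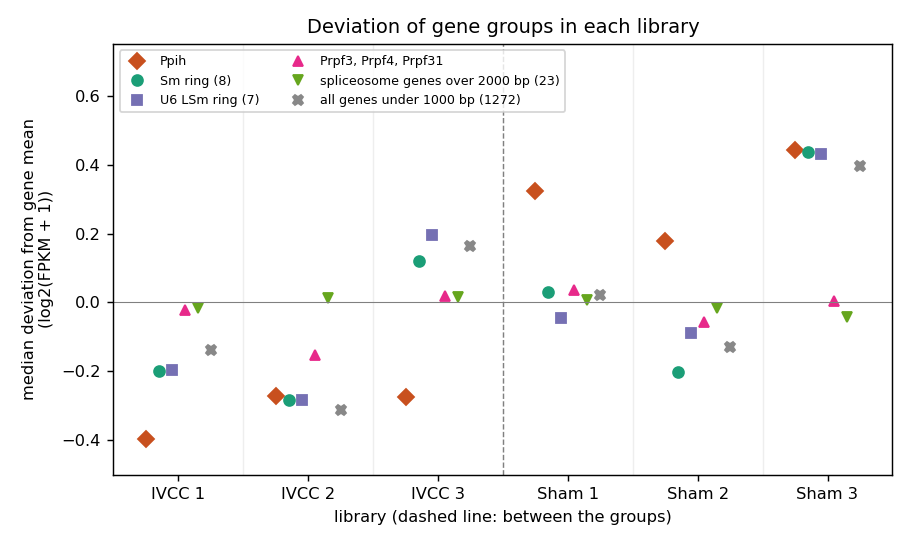
Median deviation from the gene mean, in log2(FPKM + 1), of each gene group in the 6 libraries (x axis), with group sizes in the legend. The Sm and LSm rings run from about -0.28 in IVCC 2 to about 0.43 in Sham 3, which are also the lowest and highest libraries for all genes under 1000 bp. Not all ring genes are under 1000 bp. Ppih, chosen for its group difference, is below 0 in each IVCC library and above 0 in each Sham library.

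The neighbours of Ppih on chromosome 4 did not separate the groups. Within 100 kb on either side the table held 6 other genes, of which 5 were tested, and their log2 fold changes ran from -0.22 to 0.07 with overlapping groups. Ybx1, an abundant RNA-binding protein gene just downstream on the same strand, was at 465.8, 480.7 and 588.0 FPKM in IVCC, beside 519.3, 577.7 and 620.9 FPKM in Sham.

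Beyond the genes chosen by symbol, the 12 other genes of the tri-snRNP and its assembly had 9 lower and 3 higher fitted values in IVCC, with a median of -0.09 and none called. Nhp2l1, whose protein binds the U4 RNA, was at 67.5, 56.5 and 66.5 FPKM in IVCC, beside 64.3, 67.9 and 82.2 FPKM in Sham. Snrnp200, the helicase that unwinds U4 from U6, was at 20.8, 23.1 and 17.8 FPKM in IVCC, beside 17.3, 21.1 and 17.1 FPKM in Sham. Usp39, needed for tri-snRNP recruitment, was the only one whose groups did not overlap, at 17.3, 19.9 and 18.5 FPKM in IVCC, beside 20.1, 20.2 and 22.7 FPKM in Sham (log2 fold change -0.17, standard error 0.11). Over all genes tested 8.31% did not overlap, so 1 of 12 is near that share. The remaining 11 of these genes were Snrnp200, Nhp2l1, Snrnp27, Sart1, Eftud2, Snrnp40, Cd2bp2, Txnl4a, Ddx23, Aar2 and Sart3, with log2 fold changes from -0.26 to 0.15.

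Across 8 lists of other splicing factors, snRNP assembly factors and cyclophilins, 73 of 91 genes (80.2%) had lower fitted values and 18 higher, with a median of -0.10. Over all genes tested 51.6% were lower. By transcript length, 79.8% of all genes under 1000 bp, 74.6% from 1000 to 2000 bp and 37.5% above 2000 bp were lower. The 91 genes were not split by transcript length, so their share was not set apart from this trend. The groups did not overlap for 10 of the 91 lower in IVCC and 1 higher, beside 4.22% and 4.09% of all genes tested. None was called at an adjusted limma p under 0.05. At an unadjusted limma p under 0.05, 3 of the 91 were lower and 0 higher, against 1.87% and 1.70% of all genes tested. Smn1, the core of the complex that loads Sm rings onto RNA, was at 15.0, 15.8 and 14.6 FPKM in IVCC, beside 18.5, 19.3 and 19.9 FPKM in Sham (log2 fold change -0.32, limma adjusted p = 0.924). Zcrb1, a protein of the minor spliceosome, was at 52.3, 48.5 and 69.6 FPKM in IVCC, beside 78.2, 66.4 and 94.9 FPKM in Sham, and its groups overlapped (log2 fold change -0.49, limma adjusted p = 0.924). The third was a cyclophilin.

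That cyclophilin was Ppic, which resides in the secretory pathway and is not a spliceosome protein. It was at 61.3, 58.3 and 79.2 FPKM in IVCC, beside 95.7, 106.3 and 119.3 FPKM in Sham, without overlap, a log2 fold change of -0.69 (standard error 0.15, limma adjusted p = 0.924). Of the 15 cyclophilin genes other than Ppih, 12 had lower fitted values and 3 higher, with a median of -0.16. The groups also did not overlap for Ppid, at 25.6, 24.9 and 26.4 FPKM in IVCC, beside 31.4, 32.4 and 27.3 FPKM in Sham. They did not overlap for Ppil1, a spliceosomal cyclophilin, at 30.2, 29.9 and 33.1 FPKM in IVCC, beside 33.5, 35.3 and 35.6 FPKM in Sham, where the gap was narrow. With Ppic these make 3 of the 15, all lower in IVCC, beside 4.22% of all genes tested that were lower without overlap. Transcript length was not taken into account here either. Ppia, the abundant cytosolic cyclophilin, was at 1844, 1677 and 2272 FPKM in IVCC, beside 2214, 1839 and 2913 FPKM in Sham, with overlapping groups. The 12 SR protein genes, which select exons, had a median log2 fold change of -0.04, with a range from -0.15 to 0.04.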

How the data were processed

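Per the labels' protocols, mouse kidney RNA (3 IVCC and 3 Sham libraries) was sequenced from 1 end for 75 bp after a stranded mRNA preparation. The authors deposited FPKM for 24346 genes, 1 column per library. The submitters' processing notes name, with no role or order, Cufflinks (2.2.1), TopHat2 (2.0.13), SAMtools (0.1.19), Bowtie2 (2.2.3) and mm10. The sources used here do not give the annotation, strand setting or filters.

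The 12090 genes that averaged 1 FPKM or more were tested on log2(FPKM + 1), which understates the change of low genes, with limma 3.58.1 in R 4.3.3 (mean-variance trend, two-sided, Benjamini-Hochberg over all genes tested, threshold 0.05). The intervals are limma's 95% intervals for single genes, not adjusted for their number. With 3 libraries a group, exact permutation cannot give a p below 0.1, so it was not used. The fit was checked on simulated data. Transcript lengths, GC content and gene coordinates came from GENCODE M21 (GRCm38, the assembly that mm10 names), with a length for 99.4% of genes tested. For the correction, deviations in each library were fitted on log2 length and GC content by natural splines of 4 degrees of freedom, and the fit was removed.

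The genes and lists were chosen with earlier results of these data known. Named with values are the 6 tri-snRNP genes of the set, the 5 highest and 5 lowest fold changes, any gene at an unadjusted p under 0.05, genes below the filter and the extremes in level. From the other lists, they are tri-snRNP genes and cyclophilins whose groups did not overlap and any gene at an unadjusted p under 0.05, with markers given by name and summed level. Snrpb2, Sf3b1, Nhp2l1, Snrnp200, Ybx1 and Ppia were added after their values were seen. Some genes that the rule names are not reported here. Alternatives covered the pseudocount, the filter, scaling, the trend, the replicate block, the length and GC correction and left-out libraries.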

Additional observations from a re-analysis of the deposited data

How the results depend on the processing

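Across 18 other settings the spliceosome genes other than Ppih gave 0 calls at an adjusted p under 0.05 in each. Over all genes the count of 0 was 1 with the length and GC correction plus the replicate block, 4 without the libraries numbered 3, and 0 to 4 with single libraries left out. At an unadjusted p under 0.05 the 0 spliceosome genes became 14 of 46 (30.4%) with the replicate number as a block, beside 2388 of all genes (19.8%). They became 4 (8.70%) with the block and the length and GC correction, beside 1666 (13.8%), and 4 without the libraries numbered 3, beside 1052 (8.70%). With single libraries left out the range was 0 to 4, beside 216 to 1030 of all genes, against 431 with all libraries. With no filter on low values 780 genes passed that level, and 282 with a filter at 5 FPKM. Deviations from the group means correlated over genes at -0.11, 0.34 and 0.32 for same-numbered pairs, and at -0.37 to 0.068 for the others. Each gene's deviations sum to 0 within a group, so the values for the other pairs are not independent of the same-numbered ones. The labels say nothing of a shared batch, so whether the replicate numbers pair the libraries was not settled. The Ppih difference was -0.46 under TPM and -0.49 after the length and GC correction, with or without the block, and -0.70 to -0.57 with single libraries left out. The median of the 46 genes was 0.061 under TPM, where that of all genes was 0.15, and -0.20 to -0.038 with single libraries left out. Of 16 genes followed under 18 settings, 9 of 288 values changed sign, in 4 genes. These were Prpf3 under TPM at 0.066, Prpf6 under TPM at 0.16, under quantile normalization at 0.033, without the libraries numbered 3 at 0.046 and between -0.074 and 0.056 with single libraries left out, Prpf8 at -0.068 after the correction with or without the block, and Prpf4b between -0.053 and 0.52 with single libraries left out. The cause was not tested. Precision is limited by 3 libraries per group and by a depth that FPKM do not give.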
